A study of Mus musculus with 8 samples.

Results

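The genes described here encode the machinery of motile cilia and flagella. They were chosen by name from the deposited table: axonemal dynein heavy chains (Dnah), dynein intermediate and light chains (Dnai, Dnal), dynein arm assembly factors (Dnaaf), cilia and flagella associated proteins (Cfap), radial spoke heads (Rsph), tektins (Tekt) and dynein regulatory complex genes (Drc), with Spag6, Spag16, Spag17, Hydin, Ccdc39, Ccdc40, Foxj1 and Mcidas. The rule found 91 of the 22274 genes in the table and used no measured value. The samples were 8 RNA sequencing libraries of mouse RFB kidney cells, whose labelled cell type is fibroblast. All 8 received TGF-β, a cytokine that drives matrix production, and 4 of them also received chaetocin, a compound from fungi that inhibits histone methyltransferases of the SUV39 type and also acts on redox enzymes. The groups were TGF-β alone (n = 4) and TGF-β with chaetocin (n = 4). The labels used here state no strain, dose or time. Knockdown of Suv39h1 appears in the series' design text and in no sample label. The labels do not say whether the libraries came from separate cultures, so the p-values measure the spread between these libraries, which may be technical.

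A motile cilium is built on a ring of doublet microtubules around a central pair. Dynein arms on each doublet, made of heavy chain motors with intermediate and light chains, slide the doublets against each other, and radial spokes, the central pair and the nexin-dynein regulatory complex turn sliding into bending. The genes are normally active together in multiciliated epithelia and in male germ cells, under the transcription factor FOXJ1, RFX factors and, in multiciliated cells, MCIDAS. Fibroblasts and kidney tubule cells normally carry at most a single immotile primary cilium, which has no dynein arms.

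Total counts were 20135312 to 23664084 with TGF-β alone. Chaetocin replicate 1 had 22591935 counts and the other 3 chaetocin libraries 14421225 to 15084876. A count of 3 was worth 0.128 to 0.200 CPM, the depth-scaled count (TMM scaling) used throughout. Of 14608 genes with enough counts to test, 80.7% were called at an adjusted p under 0.05 by edgeR's quasi-likelihood test, 42.0% higher and 38.8% lower with chaetocin. A call on its own therefore says little in this comparison. The summed level of the fibroblast markers, which is nearly all Fn1, was 36548 to 38371 CPM with TGF-β alone and 16363 to 17613 CPM with chaetocin. Lum and Dcn, from a list of 11 fibroblast markers, had at most 1 and 4 counts in any TGF-β library. Of the 11, 10 had enough counts to test, 1 of them below 0.5 CPM with TGF-β alone. The epithelial genes Krt8, Krt18, Cdh1 and Epcam, from a list of 11 tubule markers, were abundant in both groups. Of these 11, 9 had enough counts to test, 1 of them below 0.5 CPM. The summed tubule markers were 3593 to 3746 CPM against 6515 to 6785 CPM. Krt8 and Krt18 make up most of that difference; of 9 tubule markers tested 5 were higher and 3 lower, with a median log2 fold change of 0.08. Macrophage markers summed to 160 to 188 CPM against 125 to 147 CPM, and endothelial markers to 30.7 to 35.3 CPM against 70.6 to 76.6 CPM. The part these markers have in any result below was not tested. In bulk RNA, more cells of a type and more RNA per cell cannot be told apart.

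Of the 91 genes, 67 passed the filter on low counts. Among these, 35 were higher with chaetocin (31 with a fold of at least 2), 16 were lower (4 with a fold of at least 2) and 16 were not called. For a fold of at least 2, the shares over all tested genes were 19.7% higher and 4.88% lower. The 24 genes that missed the filter are given below by their counts. With no filter, every chaetocin library lay above every TGF-β library for 43 of the 91 genes (47.3%) and below for 15 (16.5%), against 32.1% and 23.6% of all genes in the table. The directions differed with the starting level. Below 0.5 CPM with TGF-β alone, all chaetocin libraries were higher for 32 of 51 genes (62.7%), against 31.5% of all genes that low. All genes that low include 2666 with 0 counts in all 8 libraries, which cannot rise and which make the 31.5% lower. Among the members only Cfap73, Cfap99 and Dnaaf6 had 0 counts throughout, so this contrast is partly set by undetected genes. At 0.5 CPM or more, 11 of 40 genes rose and 16 fell, against 35.7% and 43.2% of all tested genes at that level. In that range the groups did not overlap upward for 11 genes (27.5%) and downward for 15 (37.5%), against 32.6% and 39.8% of all genes there. Genes below 0.5 CPM with TGF-β alone could pass the filter mainly through their chaetocin counts. Of all tested genes that low 97.1% were called higher, so the 24 calls among the 27 tested members that low carry no information of their own.

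More of the genes were detected with chaetocin. With TGF-β alone, 68 to 72 of the 91 genes had at least 1 count and 40 to 43 had at least 10. With chaetocin, 82 to 86 had at least 1 count and 61 to 75 had at least 10. Thinned to 14421225 counts a library, the ranges at 10 counts were 36 to 38 and 61 to 70. Detection was not counted over all genes of the table, so the rise cannot be read as particular to these genes. Over all genes of the table the median of mean FPKM also went up, from 1.265 with TGF-β alone to 1.916 with chaetocin. The summed level of the 91 genes was 617 to 629 CPM with TGF-β alone and 582 to 598 CPM with chaetocin. Scaled by total counts alone the direction turned, at 595 to 604 against 605 to 619 CPM. Foxj1 and Dnaaf9, both abundant, were among the genes that fell.

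**Figure D1:**
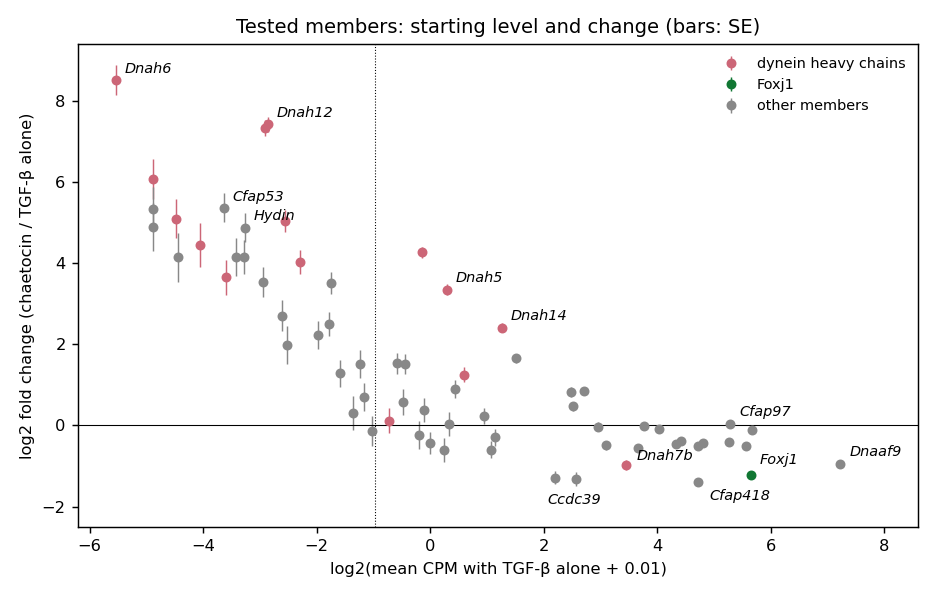
Log2 fold change with chaetocin (vertical axis, bars show the SE) against log2 of the mean CPM + 0.01 with TGF-β alone (horizontal axis) for the 67 tested genes; the dotted line stands at 0.5 CPM. Of the 27 genes left of that line 24 were called higher, and the abundant ones, with Foxj1 and Dnaaf9 at the right, lie near or below 0; genes that low entered the plot mainly through their chaetocin counts.

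The dynein heavy chains are the motor subunits of the arms. All 15 were tested, 13 rose, Dnah7b was lower and Dnah7c was not called. The rises ran from 1.25 to 8.51 on the log2 scale, with edgeR adjusted p-values up to 1.3e-06. Their summed level was 18.7, 17.8, 16.9 and 19.7 CPM with TGF-β alone and 120.3, 112.6, 115.9 and 117.4 CPM with chaetocin, so the groups did not overlap. On the FPKM scale, which is per length, the sum went from between 1.28 and 1.48 to between 9.41 and 10.98. The heavy chains stayed low even then: with chaetocin they ranged from 0.09 to 2.32 FPKM, where the median tested gene had 8.25 FPKM. Of the 9 heavy chains below 0.5 CPM with TGF-β alone, all 9 rose, as low tested genes nearly always did. Of the 6 at or above 0.5 CPM, 4 rose, beside 35.7% of all tested genes at that level.

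**Figure D2:**
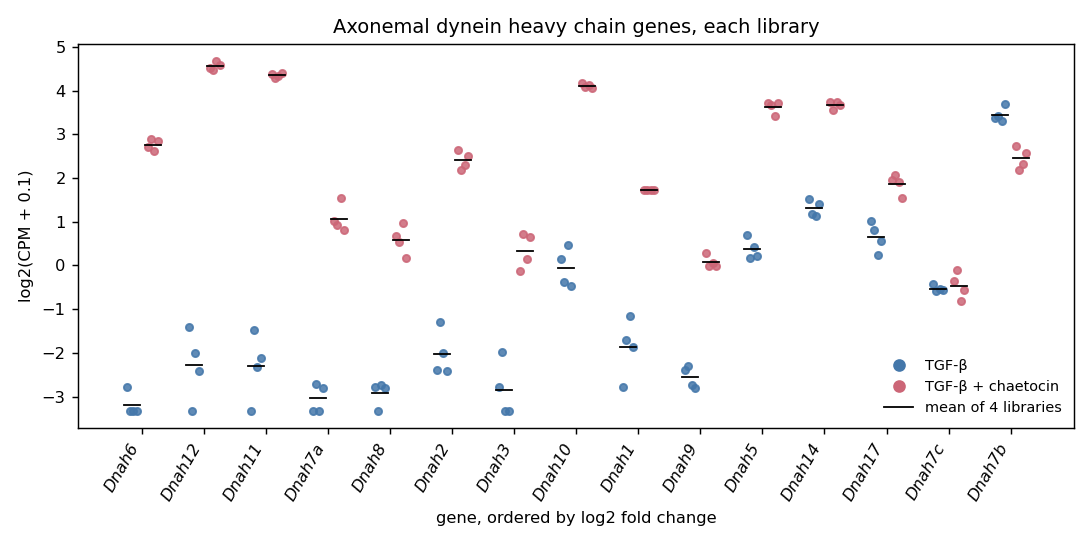
Level of each of the 15 axonemal dynein heavy chain genes on the log2(CPM + 0.1) scale; each point is 1 library and the black bars are means of 4 libraries. The chaetocin libraries lie above all TGF-β libraries for 13 genes, overlap them for Dnah7c and lie below them for Dnah7b.

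Among the outer arm heavy chains, which provide most of the beating force, all 5 rose. Of these, 3 were below 0.5 CPM with TGF-β alone, where 97.1% of all tested genes were higher. Dnah11 (chr12:117877982-118199043, minus strand, 84 merged exon blocks in GENCODE M21, GRCm38) is a heavy chain whose human counterpart is mutated in primary ciliary dyskinesia. It had 0, 5, 2 and 3 counts with TGF-β alone and 487, 302, 299 and 331 with chaetocin. The chaetocin libraries lay close together, at 20.3 ± 0.824 CPM (SD, n = 4), and far above the others at 0.122 ± 0.106 CPM. The log2 fold change was 7.34 ± 0.20 (SE, edgeR adjusted p = 1.5e-22). Dnah11 was below 0.5 CPM with TGF-β alone, so this call carries no information of its own. Dnah11 shares 642 of its 14458 exon bases with Cdca7l on the opposite strand, whose level was 8.69 CPM and 9.82 CPM and was not called. Dnah5, the core outer arm motor of airway cilia, was already detected with TGF-β alone, at 33, 20, 25 and 24 counts, and had 307, 198, 158 and 204 with chaetocin. Its log2 fold change was 3.34 ± 0.14, and no gene on the opposite strand overlaps its exons. Dnah8, the sperm counterpart of Dnah5, had 1, 0, 1 and 1 counts against 35, 21, 28 and 16, 40.2 times as many after scaling (95% counting interval 13.4 to 198.) Dnah9, the partner of Dnah5 at the ciliary tip, and Dnah17, a sperm outer arm motor, rose by 3.65 ± 0.43 and 1.25 ± 0.19.

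Of the inner arm heavy chains, which shape the waveform, 8 of 10 rose. Among the 10, 6 were below 0.5 CPM with TGF-β alone, where 97.1% of all tested genes were higher. Dnah6 (chr6:73017606-73221651, minus strand) had 1, 0, 0 and 0 counts with TGF-β alone and 150, 115, 90 and 111 with chaetocin. With so few counts in 1 group the ratio of 562 has a 95% counting interval of 100 to 22258, which covers counting error only. Dnah12 (chr14:26693274-26891703, plus strand) was the most abundant heavy chain per length with chaetocin. It had 6, 0, 3 and 2 counts against 537, 347, 379 and 375, and its level went from 0.128 ± 0.116 CPM to 23.6 ± 1.34 CPM (SD, n = 4). The log2 fold change was 7.42 ± 0.19 (edgeR adjusted p = 4.0e-23), and neither overlapping exons nor shared 50-base words make its counting uncertain. As Dnah12 was below 0.5 CPM with TGF-β alone, its call carries no information of its own. Dnah10, Dnah1, Dnah2, Dnah3 and Dnah14 rose by 4.26 ± 0.14, 4.02 ± 0.30, 5.04 ± 0.28, 4.45 ± 0.54 and 2.41 ± 0.12 on the log2 scale. Dnah1 and Dnah2 are motors of the single-headed and double-headed inner arms, and Dnah10 pairs with Dnah2.

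Counting is uncertain for heavy chains that share sequence with other genes. By the rule given below, only Dnah5 and Dnah12 among the 15 had certain counting. Exons of 10 of the 15 overlap a gene on the opposite strand, over 1.17% to 10.5% of their exon bases, and the sources used here do not say whether the counting used strand. The overlapping gene Lyrm1 rose with Dnah3 by 1.09, Lbr with Dnah14 by 0.39 and Pgs1 with Dnah17 by 0.28 on the log2 scale. The part of these partners in the counts was not tested.

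The 3 Dnah7 copies on chromosome 1 went different ways, and reads in their shared exons could have been divided among them: 40.3% of 50-base words of Dnah7a, 48.4% of Dnah7b and 48.5% of Dnah7c occur in another gene. Dnah7a had 0, 1, 0 and 1 counts against 45, 28, 42 and 26, 85.1 times as many after scaling (95% counting interval 23.1 to 709.) Dnah7b had 222, 206, 199 and 293 against 153, 70, 73 and 92, and fell by 0.98 ± 0.12 on the log2 scale (edgeR adjusted p = 2.1e-08). On deposited FPKM the fall of Dnah7b was not seen: the levels were 0.848 and 0.795 FPKM, and limma on log2(FPKM + 1) gave -0.07 with an adjusted p of 0.69. Dnah7c had 14, 11, 12 and 13 counts against 16, 13, 7 and 9 and was not called (adjusted p = 0.74). Their promoter windows in RefSeq (GRCm38.p6) are shown because all 3 hold GTTGCC, the half-site bound by RFX factors, although the copies moved differently. Each 60-base stretch is written 5′ to 3′ on the gene's strand with the half-site in capitals, at chr1:53706952-53707011 (minus), chr1:46066663-46066722 (plus) and chr1:46425272-46425331 (plus):
Dnah7a: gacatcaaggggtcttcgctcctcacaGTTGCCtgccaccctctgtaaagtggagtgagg
Dnah7b: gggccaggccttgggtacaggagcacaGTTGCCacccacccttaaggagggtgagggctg
Dnah7c: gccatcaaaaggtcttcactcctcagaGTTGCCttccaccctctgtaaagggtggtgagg

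The 250 bases before the start were also aligned in pairs. Identical bases filled 77.7% of alignment columns, gaps included, between Dnah7a and Dnah7c. The share was 64.1% between Dnah7a and Dnah7b and 53.9% between Dnah7b and Dnah7c.

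Intermediate and light chains, which anchor and regulate the motors, split by level. Of 7 genes, 5 were tested, 3 rose (60%, beside 42.0% of all tested genes) and 2 fell (40%, beside 38.8%). Dnai1, an outer arm intermediate chain, had 0, 1, 0 and 1 counts against 34, 21, 13 and 18, 51.9 times as many after scaling (95% counting interval 13.9 to 435.) Its partner Dnai2 had 2, 4, 1 and 3 counts against 30, 20, 24 and 26 and rose by 3.53 ± 0.37 (edgeR adjusted p = 1.8e-09). Both intermediate chains were near 0 with TGF-β alone and higher in every chaetocin library. Below 0.5 CPM with TGF-β alone 97.1% of all tested genes were higher, so these 2 calls carry no information of their own. Dnai4 rose from 6.55 ± 0.597 CPM to 11.8 ± 0.825 CPM. The light chain genes Dnal1 and Dnal4 were far more abundant and fell by 0.50 ± 0.05 and 0.51 ± 0.07. Dnal4 went from 17.8 to 13.3 FPKM.

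Assembly factors, cytoplasmic proteins that fold dynein arms before transport, did not follow the heavy chains. Of 9 genes, 6 were tested, Dnaaf2 rose, Dnaaf5, Dnaaf9 and Dnaaf10 fell, and Dnaaf3 and Dnaaf4 were not called. The shares were 16.7% higher and 50% lower, beside 35.7% and 43.2% of all tested genes at 0.5 CPM or more. Dnaaf9 was the most abundant of the 9 per length. It had 3227, 2804, 3054 and 3482 counts against 1780, 1242, 1164 and 1218, and went from 149.2 ± 3.72 CPM to 77.7 ± 1.36 CPM with no overlap between groups. It fell by 0.94 ± 0.03 (edgeR adjusted p = 8.8e-21). Dnaaf5 fell by 0.41 ± 0.05 and Dnaaf10 by 0.47 ± 0.07. Dnaaf2 rose by 0.83 ± 0.12, but 32.7% of its exon bases overlap a gene on the opposite strand and 37.9% of its 50-base words occur in a readthrough gene. Dnaaf1 was not tested, with 0, 0, 2 and 2 counts against 23, 8, 5 and 11. Dnaaf6 had 0 counts in all 8 libraries.

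**Figure D3:**
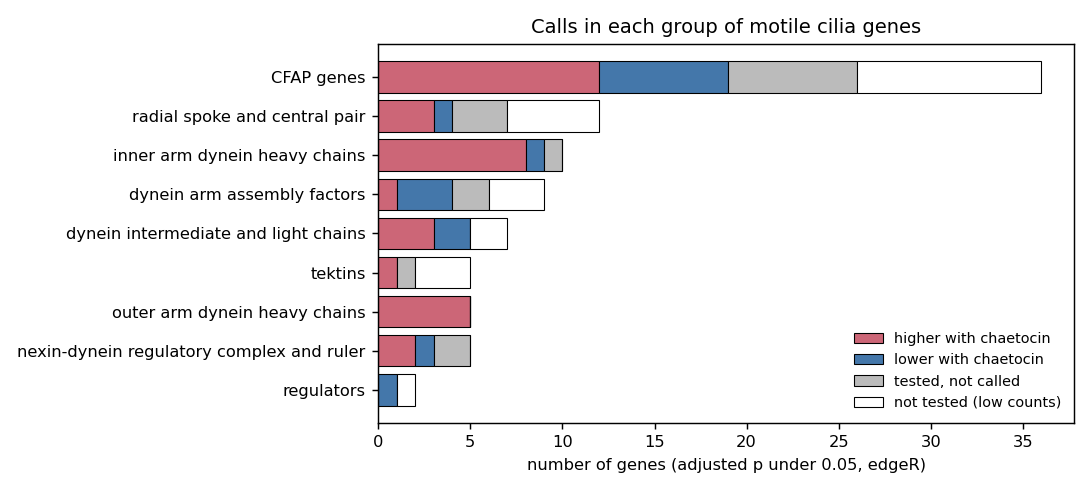
Number of genes in each structural group that were higher, lower or not called with chaetocin at an adjusted p under 0.05 (edgeR), or not tested for low counts. All 5 outer arm heavy chains and 8 of 10 inner arm heavy chains rose, 9 of these 15 being below 0.5 CPM with TGF-β alone, where 97.1% of all tested genes were higher; 3 of 6 tested assembly factors fell, beside 43.2% of all tested genes at 0.5 CPM or more.

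In the radial spokes and central pair, 7 of 12 genes were tested. Of these, 3 rose (42.9%, beside 42.0% of all tested genes), 1 fell (14.3%, beside 38.8%) and 3 were not called. Hydin, a giant central pair protein, had 1, 0, 4 and 3 counts against 75, 49, 36 and 48. All chaetocin libraries lay above all others, and Hydin rose by 4.87 ± 0.36 (edgeR adjusted p = 1.3e-12). Spag17, also of the central pair, rose by 2.70 ± 0.39 and Rsph10b by 1.52 ± 0.25. Hydin and Spag17 were below 0.5 CPM with TGF-β alone, where 97.1% of all tested genes were higher, so their calls carry no information of their own. The spoke head gene Rsph9 went the other way, from 109, 92, 96 and 87 counts to 41, 23, 31 and 35, and fell by 1.29 ± 0.17. Rsph3b, the most abundant of the group per length at 8.82 and 8.96 FPKM, was not called (adjusted p = 0.28). It shares most of its 50-base words with Rsph3a, so their counts may be divided between the copies. Spag16, a central pair gene, had 0 counts in every TGF-β library and 20, 5, 3 and 8 with chaetocin, at least 14.5-fold higher when TGF-β is set to the floor of 3 counts over the group.

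The regulatory complex that links doublets, with the ruler proteins Ccdc39 and Ccdc40 that set the spacing of arms and spokes, gave 2 rises, 1 fall and 2 genes not called. That is 40% higher and 20% lower, beside 42.0% and 38.8% of all tested genes. Drc7 had 0, 1, 0 and 1 counts against 18, 9, 18 and 17, 37.4 times as many after scaling (95% counting interval 9.93 to 316.) Drc1, the most abundant of the group per length, rose by 0.47 ± 0.12 (edgeR adjusted p = 0.00065). Ccdc39 had 144, 88, 150 and 118 counts against 65, 30, 32 and 39 and fell by 1.33 ± 0.17. Its exons overlap Ttc14 on the opposite strand over 16.9% of their bases, and Ttc14 fell by 0.29. Its partner Ccdc40 was not called.

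Tektins, filaments inside the doublets, were near the limit of detection. Tekt5 rose by 1.98 ± 0.46 (edgeR adjusted p = 0.00035), from 9, 2, 2 and 1 counts to 14, 9, 11 and 13. It was below 0.5 CPM with TGF-β alone, where 97.1% of all tested genes were higher, so this call carries no information of its own. Tekt2, at 18, 11, 20 and 10 counts against 31, 6, 17 and 20, overlapped between groups and was not called (adjusted p = 0.11). Without chaetocin replicate 2 its adjusted p was 0.016, at a log2 fold change of 0.83. Tekt3 had 0 counts in every TGF-β library and 12, 3, 8 and 9 with chaetocin, at least 12.9-fold higher against the floor of 3 counts over the group.

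The Cfap genes, a mixed group of proteins named for their place in cilia, moved both ways: of 36, 26 were tested, 12 rose (46.2%, beside 42.0% of all tested genes), 7 fell (26.9%, beside 38.8%) and 7 were not called. The share that rose is near that of all genes. Cfap53, needed for motile and nodal cilia, had 2, 1, 1 and 2 counts against 93, 39, 53 and 41. It rose by 5.36 ± 0.35 (edgeR adjusted p = 1.1e-13). Cfap57 and Cfap58 rose by 4.16 ± 0.42 and 4.14 ± 0.47 from levels below 0.1 CPM. For these and Cfap53 the calls carry no information of their own, as 97.1% of all tested genes below 0.5 CPM with TGF-β alone were higher. Cfap418 fell most, by 1.40 ± 0.07, from 556, 486, 519 and 659 counts to 238, 147, 168 and 145. Cfap20, a microtubule inner protein, fell by 0.44 ± 0.06. Cfap36, the most abundant of the group per length at 29.3 and 29.2 FPKM, fell by 0.12 ± 0.05 (adjusted p = 0.021), a call lost with total-count scaling, with DESeq2, on FPKM and without TGF-β replicate 4, where the adjusted p was 0.11. Cfap161 had 0 counts with TGF-β alone and 18, 10, 5 and 8 with chaetocin, at least 16.5-fold higher against the floor of 3 counts over the group. Cfap73 and Cfap99 had 0 counts in all 8 libraries.

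Foxj1 (chr11:116330704-116335399, minus strand), the forkhead factor that switches on motile cilia genes in many tissues, moved opposite to the heavy chains. It had 1127, 976, 1030 and 1081 counts with TGF-β alone and 516, 345, 309 and 321 with chaetocin. Its level fell from 50.1 ± 1.81 CPM to 21.3 ± 0.871 CPM (SD, n = 4), or from 18.4 to 8.44 FPKM, and the groups did not overlap. The log2 fold change was -1.23 ± 0.05 (edgeR adjusted p = 1.4e-18). Mcidas, the coactivator that starts multiciliation, had 0 counts in every TGF-β library and 2, 0, 1 and 1 with chaetocin, too few to test.

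The list of the multiciliated cell programme, which includes Foxj1 and Mcidas, moved both ways. Of 25 genes, 17 were tested, 7 rose (41.2%, beside 42.0% of all tested genes) and 8 fell (47.1%, beside 38.8%). The median log2 fold change was 0.06 beside 0.02 over all tested genes. With total-count scaling 8 rose and 6 fell. Rfx4, an RFX factor known from brain and testis, had 0 counts in every TGF-β library and 97, 99, 84 and 65 with chaetocin. That is at least 139-fold higher against the floor of 3 counts over the group. Myb, which acts early in multiciliation, had 1, 2, 0 and 2 counts against 75, 35, 30 and 35 and rose by 5.23 ± 0.40. None of the 5 RFX genes detected in both groups was called higher: Rfx5 was not called, Rfx7 fell by 0.14 ± 0.03, and Rfx1, Rfx2 and Rfx3 fell by 0.40 ± 0.08, 0.71 ± 0.19 and 0.29 ± 0.09. Gmnc, Trp73, Ccno, Cdc20b and Deup1, which act in centriole amplification or upstream of Foxj1, were not tested, with at most 20 counts in any library. Cdc20b and Trp73 had 0 counts in every TGF-β library and summed to 47 and 17 with chaetocin. Against the floor of 3 counts over the group, Cdc20b was at least 18.9-fold and Trp73 at least 6.84-fold higher. Gmnc, Ccno and Deup1 did not go from 0 to more than 3 counts in this way.

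**Figure D4:**
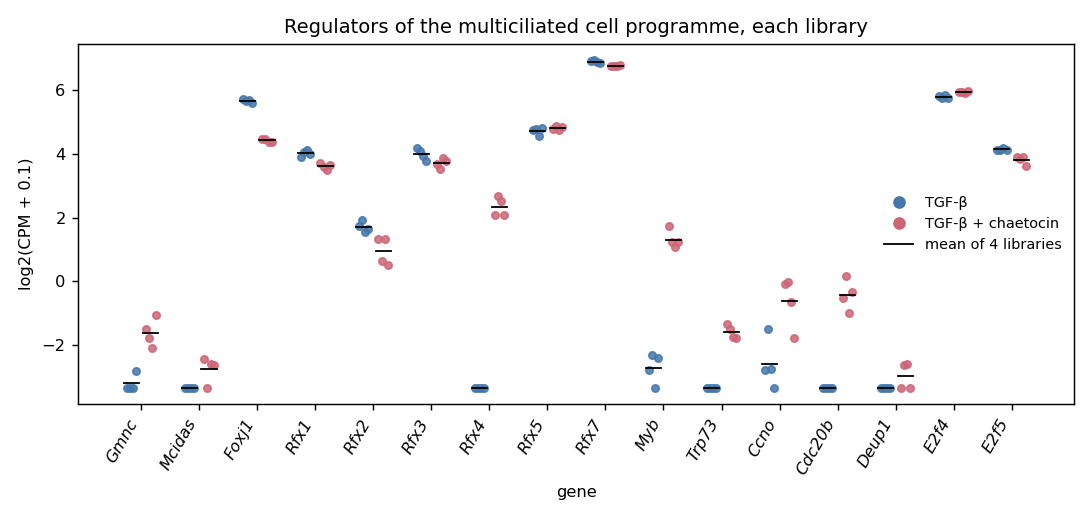
Level of 16 regulators of the multiciliated cell programme on the log2(CPM + 0.1) scale; each point is 1 library and the black bars are means of 4 libraries. Foxj1 was lower in all 4 chaetocin libraries, while Rfx4 had 0 counts with TGF-β alone and between 65 and 99 with chaetocin.

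In lists of 10 multiciliated cell and 10 male germ cell markers, the genes were low apart from Foxj1 and Tex14. Of 10 multiciliated cell markers, 3 to 4 had a count in the TGF-β libraries and 4 to 7 in the chaetocin libraries. They summed to 47.8 to 52.2 CPM with TGF-β alone and 21.6 to 24.0 CPM with chaetocin, and Foxj1 was nearly all of that sum. Fam183b had 0 counts in all 8 libraries, and Sntn and Deup1 had at most 1 count in any. In a second list of 16 markers of this cell type, which shares genes with the first, 7 were tested. Of these, 2 rose (28.6%, beside 42.0% of all tested genes) and 3 fell (42.9%, beside 38.8%). Tubb4b and Ezr rose by 0.85 ± 0.03 and 0.67 ± 0.03, and Cd24a and Tuba1a fell by 0.58 ± 0.03 and 0.41 ± 0.03. Of 10 male germ cell markers, a TGF-β library held counts for 3 to 4 and a chaetocin library for 5 to 7. All chaetocin libraries were higher for 4 of the 10 (40%, beside 32.1% of all genes in the table). The 10 markers summed to between 0.445 and 0.704 CPM and between 21.8 and 25.6 CPM, nearly all of the latter from Tex14, an intercellular bridge gene. Prm2, Tnp1 and Acrv1 had 0 counts throughout.

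Axoneme genes with names outside the rule also moved both ways. Of 40 in the table, 31 were tested, with a median log2 fold change of 0.54. Of the 31, 19 rose (61.3%, beside 42.0% of all tested genes) and 6 fell (19.4%, beside 38.8%). Among the 31, 8 were below 0.5 CPM with TGF-β alone, where 97.1% of all tested genes were higher. Enkur, a microtubule inner protein, and Ak7, an adenylate kinase of cilia, rose by 2.40 ± 0.15 and 4.19 ± 0.31, and Lrguk and Gas8, a subunit of the regulatory complex, fell by 1.64 ± 0.14 and 0.57 ± 0.05. Of 30 sperm genes outside the axoneme, 9 were tested, 2 of them below 0.5 CPM with TGF-β alone. Of the 9, 7 rose (77.8%, beside 42.0% of all tested genes) and 1 fell (11.1%, beside 38.8%). Akap4, of the sperm fibrous sheath, rose by 3.04 ± 0.13, Hspa1l by 3.03 ± 0.15, and Odf2, also a centrosome gene, fell by 0.73 ± 0.04.

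Genes of ciliary and cytoplasmic transport were more often lower than higher. Of 28 intraflagellar transport genes, all tested, 4 rose (14.3%) and 18 fell (64.3%), with a median log2 fold change of -0.44. All but 1 were at 0.5 CPM or more with TGF-β alone, where 35.7% of all tested genes were higher and 43.2% lower. Kif3b and Kifap3, subunits of the anterograde motor, fell by 0.61 ± 0.03 and 0.84 ± 0.05, while Wdr35 and Ttc30a2 rose by 0.39 ± 0.03 and 2.82 ± 0.41. Of 26 genes of cytoplasmic dynein and its cofactor dynactin, 3 rose (11.5%) and 16 fell (61.5%). Here too all but 1 were at 0.5 CPM or more, where the shares over all tested genes were 35.7% and 43.2%. The median log2 fold change was -0.15, and with total-count scaling 7 rose and 12 fell. Dync1li2 and Dctn4 fell by 0.91 ± 0.03 and 0.71 ± 0.03, and Dync2h1, the ciliary retrograde motor, and Dync1i1 rose by 0.46 ± 0.05 and 3.83 ± 0.49.

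The genes next to members that rose moved both ways. The 16 named members with a rise of at least 2-fold have 32 nearest protein-coding neighbours in GENCODE M21 that do not overlap them. All were tested, 11 were higher (34.4%), 14 lower (43.8%) and 7 not called, with a median log2 fold change of -0.03. All but Sorcs3 and Asb14 were at 0.5 CPM or more with TGF-β alone. At that level 35.7% of all tested genes were higher and 43.2% lower, near the shares of the neighbours. At least 2-fold, 5 of the 32 rose (15.6%, beside 19.7% of all tested genes, low ones included) and 4 fell (12.5%, beside 4.88%). Of the 5 that rose, 2 lie on either side of Dnah11, namely Rapgef5 (1.26), 118245 bases away, and Sp4 (2.23), 35890 bases away. Cdca7l, which overlaps Dnah11 and was not called, was passed over. Asb14 lies 2854 bases from Dnah12 and rose by 4.33. Sorcs3, beside Cfap58, and Kif19a, beside Dnai2 and itself a ciliary kinesin, were the others. The 4 that fell were Itprip beside Cfap58, Stk17b beside Dnah7a, Glp1r beside Dnah8 and Ttyh2 beside Dnai2. These neighbours were singled out after their values were seen.

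RefSeq promoter windows, 250 bases before to 50 after a start, were found for 76 of the 91 genes, as 84 windows. The RFX half-site GTTGCC, searched on both strands, was in 33 of the 84 (39.3%) and in 12.6% of 21254 windows of all protein-coding genes. By direction, 32.1% of 28 windows of genes that rose at least 2-fold held it, 26.7% of 15 windows of genes that fell and 28.6% of 14 heavy chain windows. These shares were not tested against each other. The full RFX site, a pair of facing half-sites, was searched only in an exact form with fixed bases and fixed spacing. Pairs with other bases or spacing were not searched for, so a window without the exact form may still hold a pair. The exact form was in none of the 84 and in 0.047% of all. The forkhead motif GTAAACA was in 4.76% and 3.01%, the CCAAT box in 38.1% and 38.2%, and the E2F motifs GCGCGAAA or TTCGCGCC in none and 0.936%. Half-sites of an inner arm motor, a central pair gene, an intermediate chain and Mcidas are shown as examples from different structures, in 60-base stretches written 5′ to 3′ on the gene's strand, all plus. Capitals mark GTTGCC, or GGCAAC where it lies on the other strand. The stretches lie at chr5:124725025-124725084, chr8:110266917-110266976, chr11:114727359-114727418 and chr13:112993646-112993705:
Dnah10: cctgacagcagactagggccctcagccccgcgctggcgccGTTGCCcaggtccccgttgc
Hydin: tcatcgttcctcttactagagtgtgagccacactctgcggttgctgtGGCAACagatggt
Dnai2: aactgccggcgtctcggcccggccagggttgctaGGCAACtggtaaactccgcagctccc
Mcidas: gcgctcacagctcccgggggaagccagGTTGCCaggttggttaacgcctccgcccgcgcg

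CpG content was read from the same windows. The median ratio of observed to expected CpG was 0.567 over all windows, 0.601 over all 84 member windows, 0.557 in windows of genes that rose at least 2-fold, 0.450 in heavy chain windows and 0.765 in windows of genes that fell. No difference between these sets was tested. The 150 bases before the RefSeq start of Dnah12 hold 1 CpG, and those of Dnaaf9, which fell, hold 24. They were chosen after their values were seen as the extremes: Dnah12 has the lowest ratio of the member windows (0.0952), and this Dnaaf9 window has the most CpG (44), while a second RefSeq window of Dnaaf9 has 22. Both are shown with CG in capitals, at chr14:26691404-26691553 (plus) and chr2:130840146-130840295 (minus):
Dnah12: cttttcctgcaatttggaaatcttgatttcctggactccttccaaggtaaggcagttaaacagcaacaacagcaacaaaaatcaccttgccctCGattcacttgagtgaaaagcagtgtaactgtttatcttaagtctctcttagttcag
Dnaaf9: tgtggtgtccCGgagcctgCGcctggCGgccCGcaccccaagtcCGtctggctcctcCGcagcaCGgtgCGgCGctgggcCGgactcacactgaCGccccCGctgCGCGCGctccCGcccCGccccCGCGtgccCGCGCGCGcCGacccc

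**Figure D5:**
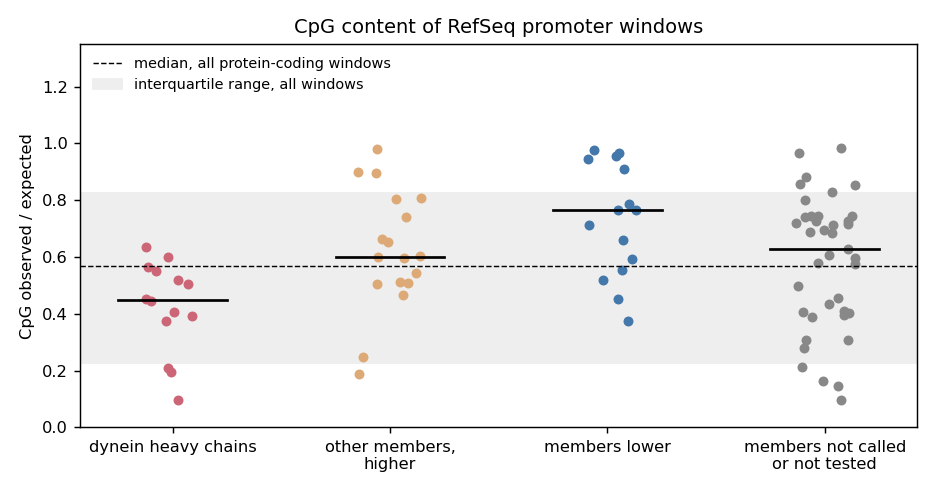
Ratio of observed to expected CpG in the 300-base RefSeq windows (vertical axis), each point 1 window and each black bar a median, with the interquartile range of all protein-coding windows shaded and their median dashed. The median is 0.450 for the heavy chains and 0.765 for genes that fell; Dnah7b is in both columns.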

How the data were processed

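RNA was sequenced from 8 samples, extracted with an RNeasy kit and prepared with a SMARTER mRNA kit, per the labels' protocols. The submitters' processing notes name GRCm38 (mm10) as build. The aligner, its version, the counter and its strand setting were not given in the sources used here. In the deposited table, 22274 genes have unnormalized read counts and FPKM values for every sample, per the file headers. FPKM is per length and depth, and the deposited values are not proportional to the counts. The authors' mean FPKM, log2 ratio, p-value and FDR in the deposited table were not used.

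Samples were grouped by the treatment label. Counts were tested with edgeR 4.0.16 in R 4.3.3 (filterByExpr, TMM scaling, quasi-likelihood F test, no covariates), with Benjamini-Hochberg adjustment over all 14608 tested genes and calls at an adjusted p under 0.05. The SE is the log2 fold change divided by the square root of F. CPM are TMM-scaled counts. Counting intervals and floors (3 counts) cover counting error only. The test was checked on simulated data. Positions, overlaps and shared 50-base words come from GENCODE M21; a gene's counting was called uncertain with any exon overlap on the opposite strand or at least 20% of its words shared, which held for 42 of the 91.

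The members, gene lists, groups and tests were chosen with earlier results of these data known. Named genes were, in each structural group, the 3 largest called rises, the 2 called falls with the smallest p, and the gene with the highest mean FPKM, with Foxj1 and Mcidas always, and for each list the 2 called genes with the smallest p in each direction. Untested genes are named by their counts. A gene that this rule takes from the lists is not reported here. The other heavy chains, RFX factors, assembly factors and marker genes are named to complete their groups, after their values were seen. Alternatives covered the test (DESeq2 1.42.0, limma-voom, and limma 3.58.1 on log2(FPKM + 1), filtered or not, or log2(FPKM + 0.1)), scaling (total counts, or size factors from DESeq2), the filter (none, or 1 CPM in at least 4 libraries), a replicate block, a minimum fold of 2, leaving out one library at a time, and leaving out uncertain genes. Protein sequences were not used here. Figures were drawn with matplotlib 3.10.9.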

Additional observations from a re-analysis of the deposited data

Results flagged for a closer look

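In 51 groups of 4 libraries checked for a library far from the others, 2 stood out, where chance gives about 1 in 20. The level of Cfap418 in TGF-β replicate 4 was 29.0 CPM (28.9954), where the other 3 TGF-β libraries had 25.1 to 25.6 CPM. All 4 lay above the chaetocin libraries. The total count of chaetocin replicate 1 was 22591935, where the other 3 chaetocin libraries had 14421225 to 15084876. Without that library 35 members were higher and 16 lower, the same numbers as with it.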

How the results depend on the processing

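Members higher with chaetocin numbered 35. There were 9 of 27 tested with limma on log2(FPKM + 1) and 9 with log2(FPKM + 0.1), where the FPKM filter leaves fewer genes, and 15 of 31 with uncertain genes left out. Other settings gave 26 (at least 1 CPM) to 47 (no filter), DESeq2 43. Members lower numbered 16, and 4 with a fold of at least 2. Over all genes that fold left 2884 higher and 713 lower. Total-count scaling moved the median log2 fold change of all genes from 0.02 to 0.14 and the calls from 6129 higher and 5662 lower to 7180 and 4514, members to 37 and 15. Dynein heavy chains higher, an alternative set added after seeing the data, numbered 13 in every count-based setting run for them except 11 of 12 at 1 CPM, and 3 of 3 tested with limma on log2(FPKM + 1) and 3 with log2(FPKM + 0.1). Leaving out uncertain genes was not run for the heavy chains, and would keep only Dnah5 and Dnah12. Leaving out each library gave 35 to 40 members higher, 15 to 17 lower, 6030 to 6276 and 5538 to 5677 of all genes, and 13 heavy chains. Rsph3b, not called at -0.08, turned to 0.030 with total-count scaling, 0.0215 with log2(FPKM + 1), with or without the FPKM filter, and 0.0238 with log2(FPKM + 0.1). Cfap36 and Dnah7b lost their calls as given above; the cause was not tested. No shared deviation of same-numbered libraries was seen: their correlations of deviations were -0.013 to 0.032, beside -0.064 to 0.063 for differently numbered libraries. These values cannot show whether the samples were handled in numbered pairs. With a replicate block 35 members were higher and 16 lower, 6105 and 5643 of all genes, and 13 heavy chains were higher. The planned protein description was not run. Genes with few counts with TGF-β alone have wide intervals, and members at 3 counts or fewer in a group cannot be ranked by fold.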
